A study of Danio rerio with 4 samples.

Results

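The transcripts described here encode the contractile apparatus of zebrafish skeletal muscle: 60 genes for the filaments, the Z-disc, calcium release and uptake, energy supply, filament assembly and muscle gene regulation. They were matched to the array's probes by name, from a list of symbols drawn up with earlier results of these data known. No measured value enters the matching. All 60 were found among 26544 genes or accessions with complete values, through 170 probes. The nebulette gene nebl gave no signal well above background on the arrays. The other 59 members, with 161 probes, are among the 18834 genes or accessions kept. By fibre type, 19 of the 59 were classed as fast, 7 as slow, 4 as parvalbumins and 29 as shared or not tied to a fibre type.

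The study compared wild type with zebrafish mutant for mst1, the gene of macrophage stimulating protein (Msp), a secreted growth factor of the hepatocyte growth factor family. Whole embryos of the WIK strain were raised at 28 °C in E3 medium and collected 3 or 6 days after fertilization (dpf), which gives 4 groups: wild type at 3 dpf, Msp mutant at 3 dpf, wild type at 6 dpf and Msp mutant at 6 dpf. Each group was 1 pool of RNA from 30 embryos. The allele and whether mutants were homozygous are not given in the sources used here. Each stage was hybridised on 2 two-colour Agilent arrays with the dyes swapped, the mutant in Cy5 (red) on array 1 and in Cy3 (green) on array 2. Taking both arrays of a stage as the same RNA, the design has no replicate of a genotype within a stage. Errors marked SD are over the 2 arrays of a stage and cover labelling and hybridisation only.

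Median spot signals were 146.5 to 154 in green over a background of 47.5 to 49, and 167 to 187 in red over 87 to 87.5, with no saturated spot. Across all genes, the log2 ratios of the dye-swapped arrays correlated at 0.412 at 3 dpf and 0.403 at 6 dpf. The mst1 transcript itself lay below wild type on each of the 4 arrays, with log2 ratios of -0.70, -0.61, -1.01 and -1.24, and limma gave -0.89 over both stages (adjusted p = 0.0427). The labels do not place the mutation relative to the probe.

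In a muscle fibre, thick filaments of myosin pull on thin filaments of actin, and troponin and tropomyosin on the thin filament make this pull depend on calcium. Calcium leaves the sarcoplasmic reticulum through the ryanodine receptor when the membrane is depolarised and is pumped back by the SERCA calcium ATPases. In zebrafish the trunk carries a superficial layer of slow fibres over a deep mass of fast fibres, and each type uses its own myosins and troponins. New myosin is folded and built into filaments with the help of dedicated chaperones.

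The members were bright probes. Their median log2 signal over the 4 pools was 13.68, against 8.0 for all genes kept. Of the 59 members, 58 were well above background on both arrays in all 4 pools. The exception was tnni1b, a troponin I of slow fibres, which passed on 1 of 2 arrays in each genotype at 6 dpf. The pools were whole embryos, so fewer muscle cells and less RNA per muscle cell cannot be told apart in any value below.

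The larger differences among the members lay between the stages. From 3 to 6 dpf, 4 of 59 members rose (4.92% of all genes) and 6 fell (5.38% of all genes), where a call needed a limma adjusted p under 0.05 over all genes and an absolute log2 change of at least 1. The risers were the calcium pump atp2a1l, the Kelch protein klhl31, the Z-disc protein tcap and the calcium channel cacna1sb. The 6 that fell were the calsequestrin casq2, the actin acta1b, the troponins tnnt3a, tnnt2c and tnni2b.1, and the myosin chaperone unc45b. These are 6.78% and 10.2% of the 59 members. The calls of tcap, cacna1sb, tnnt3a, tnni2b.1 and unc45b each rest on 1 kept probe. Without the size requirement 16 members, or 27.1%, were higher at 6 dpf (31.3% of all genes) and 20, or 33.9%, were lower (30% of all genes). The members' median log2 change was 0.02, beside 0.01 for all genes.

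**Figure D1:**
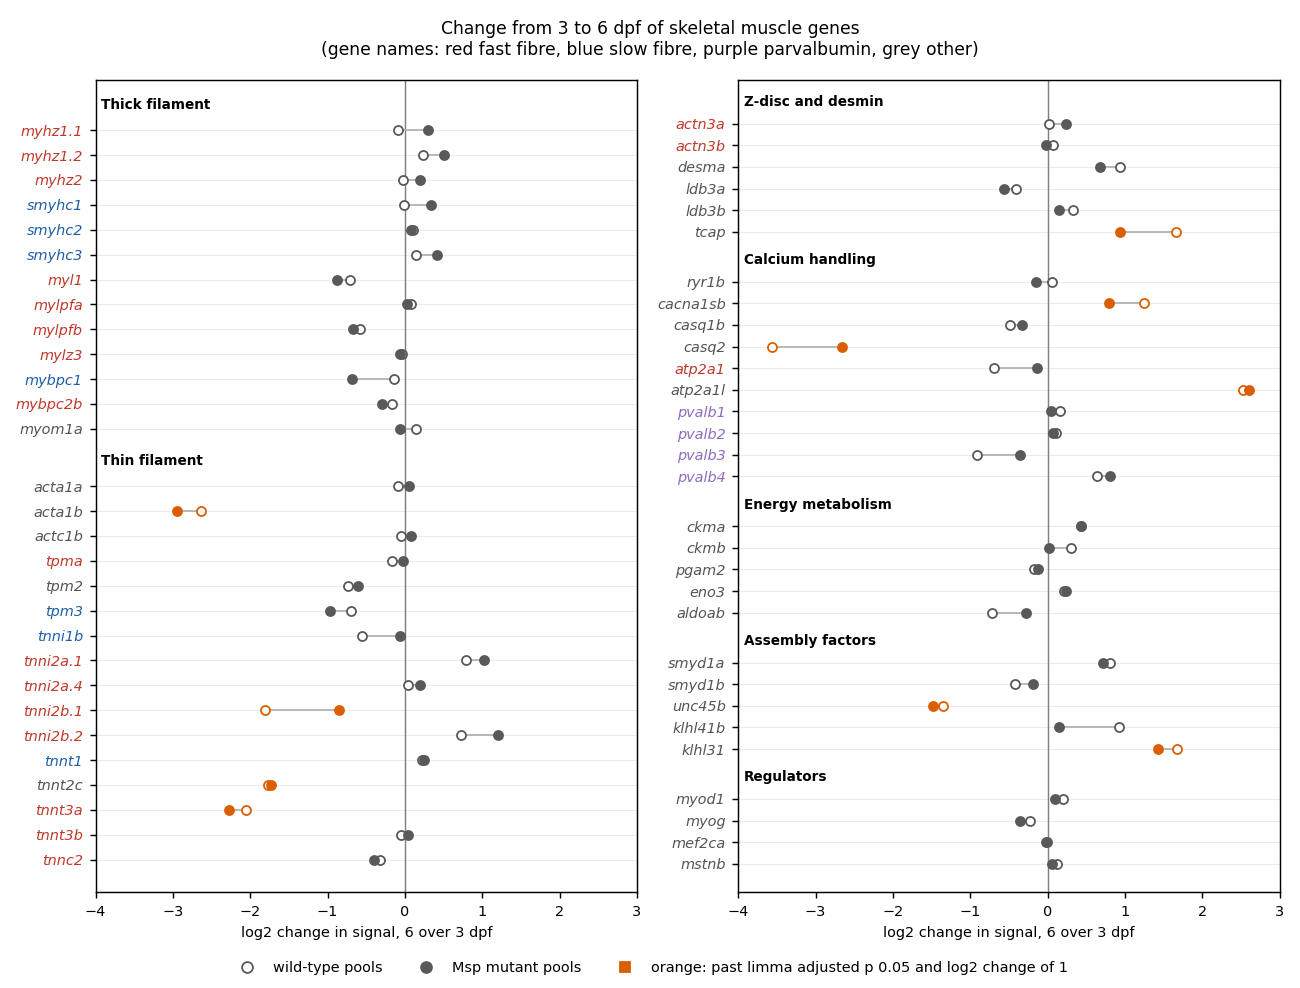
Change in log2 signal from 3 to 6 dpf (x axis) for each of the 59 measured muscle genes, grouped by role, in the wild-type pools (open circles) and the Msp mutant pools (filled circles), with orange marking the 4 genes that rose and the 6 that fell. Both genotypes moved the same way for all 10, from -3.56 for casq2 in wild type to 2.60 for atp2a1l in the mutant.

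Among the thick filament genes, none of 13 passed the stage rule in limma (4.92% of all genes rose and 5.38% fell). At an adjusted p under 0.05 of any size, 2 were higher (31.3% of all genes) and 4 lower (30% of all genes). The fast myosin heavy chain genes myhz1.1, myhz1.2 and myhz2 had log2 changes of 0.11, 0.37 and 0.09, and the slow heavy chain genes smyhc1, smyhc2 and smyhc3 had 0.16, 0.09 and 0.28. Signals of smyhc3 were 43002 in wild type and 35994 in the mutant at 3 dpf, and 47405 and 48076 at 6 dpf. All 3 slow heavy chain genes are neighbours in the GRCz12tu annotation, as are myhz1.1 and myhz1.2, and whether their probes keep the near-identical copies apart was not tested. The largest value in the group belonged to myl1, the essential light chain of fast myosin. Its signal was 24071 in wild type and 16541 in the mutant at 3 dpf, and 14737 and 9039 at 6 dpf, a log2 change of -0.79 ± 0.08 (SE, limma adjusted p = 0.000485) that stayed under the size required. Both 6 dpf pools were below both 3 dpf pools. The regulatory light chain gene mylpfb stood at -0.63 and its paralogue mylpfa at 0.05. The other probe of mylpfb was at -0.70, and the other 2 of mylpfa were at 0.66 and 0.27. The C-protein genes, whose products stabilise the thick filament, were at -0.41 for the slow mybpc1 and -0.23 for the fast mybpc2b. The other 2 probes of mybpc2b were lower, at -1.01, which passed the rule in a limma fit of single probes, and at -0.90.

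The thin filament held 4 of the 6 genes that fell, out of 16 measured (5.38% of all genes fell). Signals of acta1b, a skeletal alpha-actin, were 69410 in wild type and 59646 in the mutant at 3 dpf, and 11147 and 7745 at 6 dpf. The stages did not overlap, and limma gave a log2 change of -2.79 ± 0.10 (SE, adjusted p = 3.15e-05), a 6.93-fold fall. All 6 of its probes fell, by log2 values from -2.55 to -2.91. The other skeletal alpha-actin, acta1a, gave no single answer: its brightest probe stood at -0.02, whereas its other 2 probes fell, by -1.81 and -1.87. The cardiac-class alpha-actin actc1b was at 0.01 on its brightest probe, and its 5 other probes ranged from -0.48 to 0.49.

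Troponin T joins troponin to tropomyosin. The fast isoform tnnt3a had signals of 6694 in wild type and 5234 in the mutant at 3 dpf, and 1607 and 1080 at 6 dpf, a log2 change of -2.17 ± 0.08 (SE, limma adjusted p = 3.87e-05). Its fast paralogue tnnt3b stood at 0.00, with signals between 140628 and 170152 in the 4 pools. Both 6 dpf pools were thus below both 3 dpf pools for tnnt3a, while the pools of tnnt3b overlapped between the stages. A troponin T of the cardiac class, tnnt2c, had signals of 428.0 and 397.3 at 3 dpf and of 126.0 and 119.8 at 6 dpf, and it fell by 1.75 ± 0.07 on the log2 scale (SE, limma adjusted p = 4.29e-05). These low signals include an offset of 50 added in processing. Over all processing settings tried, the log2 change of tnnt2c ran from -2.75 to -1.17. Its other kept probe was at -0.59. The slow isoform tnnt1 stood at 0.23, on its 1 probe. The array's own annotation calls that probe zgc:193865 and gives the symbol tnnt1 to the 3 probes of tnnt2c. These were assigned here through RefSeq accessions, which matched 2 of the 3 directly.

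Troponin I is the inhibitory subunit. The fast gene tnni2b.1 had signals of 3581 in wild type and 3118 in the mutant at 3 dpf, and 1025 and 1722 at 6 dpf. It fell by 1.33 ± 0.21 on the log2 scale (SE, limma adjusted p = 0.00263), with a change of -1.80 between the wild-type pools and of -0.86 between the mutant pools. The adjacent gene tnni2b.2 was higher at 6 dpf in both genotypes, by 0.73 in wild type and 1.2 in the mutant, and its mean of 0.96 was just under the size required. Its other kept probe stood at 1.5 and rose in the limma fit of single probes. In the other cluster, tnni2a.1 stood at 0.91 and tnni2a.4 at 0.12. Probes of tnni2a.4 disagreed, since its brightest 2 stood at 0.12 and 0.19 and the third fell by 2.90. The slow gene tnni1b was at -0.31, the fast troponin C gene tnnc2 at -0.36, and the tropomyosin genes tpma, tpm2 and tpm3 at -0.09, -0.67 and -0.83.

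At the Z-disc, which anchors the thin filaments, 1 of 6 genes rose (4.92% of all genes). This was tcap, which encodes telethonin, the protein that caps titin at the Z-disc. Its signals were 348.5 in wild type and 435.1 in the mutant at 3 dpf, and 1096 and 834.0 at 6 dpf. The stages did not overlap, and the log2 change was 1.30 ± 0.16 (SE, limma adjusted p = 0.00116), with 1.65 in wild type and 0.94 in the mutant. Desmin gene desma, an intermediate filament that ties Z-discs together, was at 0.81, and 1 of its other 2 probes, at 1.22, rose in the fit of single probes. The alpha-actinin genes actn3a and actn3b stood at 0.12 and 0.02, and the PDZ-LIM genes ldb3a and ldb3b at -0.49 and 0.24.

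Calcium handling held the largest changes in both directions. Signals of atp2a1l, a SERCA1-like calcium pump, were 16511 in wild type and 14202 in the mutant at 3 dpf, and 95247 and 85867 at 6 dpf. The log2 change was 2.56 ± 0.07 (SE, limma adjusted p = 1.91e-05), a 5.91-fold rise, and all 6 probes of the gene rose, by 2.42 to 3.11. Its paralogue atp2a1, the SERCA1 pump of fast fibres, stood at -0.42, or -0.70 between the wild-type pools and -0.14 between the mutant pools. The L-type channel subunit cacna1sb, the voltage sensor of the muscle membrane, had signals of 606.5 and 618.9 at 3 dpf and of 1442 and 1073 at 6 dpf. It rose by 1.02 ± 0.12 on the log2 scale (SE, limma adjusted p = 0.000828). The ryanodine receptor gene ryr1b, whose product this channel opens, was at -0.05.

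Calsequestrin binds calcium inside the sarcoplasmic reticulum. Signals of casq2 were 3642 in wild type and 3165 in the mutant at 3 dpf, and 308.6 and 500.2 at 6 dpf. It fell by 3.11 ± 0.20 on the log2 scale (SE, limma adjusted p = 0.000108), or 8.64-fold, and its other 2 probes fell too (-1.46 and -2.01). The paralogue casq1b stood at -0.41. Parvalbumins, the soluble calcium buffers of fast-relaxing muscle, ranged from -0.64 for pvalb3 to 0.72 for pvalb4. None of the 4 passed the rule, with 1 higher (31.3% of all genes) and 1 lower (30% of all genes) at any size. In GRCz12tu each of these is next to another parvalbumin gene, pvalb3 beside pvalb2 and pvalb4 beside pvalb1.

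None of 5 energy genes passed the stage rule in limma, with 2 higher (31.3% of all genes) and 1 lower (30% of all genes) at any size. The creatine kinase genes ckma and ckmb, which regenerate ATP from phosphocreatine, were at 0.43 and 0.16. Their dimmer probes stood higher, at 0.95 for ckma and from 0.24 to 1.05 for the 4 of ckmb, of which the one at 1.05 rose in the fit of single probes. The glycolytic genes pgam2, eno3 and aldoab stood at -0.15, 0.23 and -0.50. The other probe of pgam2 was at 0.06 and that of aldoab at 0.22, both of the opposite sign. The other 3 probes of eno3 ranged from 0.29 to 0.89. Of 5 assembly genes, klhl31 rose (4.92% of all genes) and unc45b fell (5.38% of all genes). Signals of klhl31 were 7058 and 6960 at 3 dpf in wild type and mutant, and 22429 and 18749 at 6 dpf, a log2 change of 1.55 ± 0.09 (SE, limma adjusted p = 7.66e-05), and all 3 of its probes rose. The gene unc45b encodes the chaperone that folds the myosin head. Its signals at 3 dpf were 1581 in wild type and 1500 in the mutant, and at 6 dpf 617.4 and 534.9. Its log2 change was -1.42 ± 0.08 (SE, limma adjusted p = 6.94e-05). The myosin methyltransferase genes smyd1a and smyd1b were at 0.76 and -0.31, and klhl41b, which encodes a Kelch protein of the sarcomere, at 0.53. The myogenic transcription factor genes myod1, myog and mef2ca stood at 0.15, -0.30 and -0.02, and mstnb, a myostatin that limits muscle growth, at 0.09.

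By fibre class, 2 of 19 fast members fell (tnnt3a and tnni2b.1) and none of 7 slow members passed the limma stage rule, beside 5.38% of all genes that fell and 4.92% that rose. The slow count depends on the naming of probes. Under the array's own symbols, the probes of tnnt2c would count as slow tnnt1, and their brightest fell. At any size 3 fast members were higher and 7 lower, and 2 slow members were higher and 2 lower, beside 31.3% and 30% of all genes. The wild-type median log2 change was -0.05 for fast and -0.01 for slow members, and the mutant medians were -0.02 and 0.08. These medians moved to either side of 0 with the normalization and have no settled direction. All 6 members that fell were also called under the 14 other settings tried. The call of cacna1sb was lost in 4 of them, with log2 changes down to 0.56, and that of tcap in 1. Without normalization between arrays, which lowers the median stage change of all genes to -0.22 in wild type and -0.25 in the mutant, 2 members rose and 10 fell.

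Other skeletal muscle genes, taken from a list of 96 with 67 kept, showed 8 that rose and 4 that fell. For this and the next lists the shares of all genes are 4.92% rising and 5.38% falling. The largest rises were in fbxo32 (4.51), which encodes a ubiquitin ligase of muscle atrophy, in txlnbb (2.73), and in trim63a (2.63), another muscle ubiquitin ligase. Of those that fell, casq1a, a further calsequestrin, fell by 2.53 on the log2 scale, and the caveolar genes cavin4a and cavin4b fell too (-1.97 and -1.71). Both SERCA and C-protein families had a member here too, with atp2a2a at 1.47 and mybpc2a at 1.5. Markers of other tissues also moved between the stages. In smooth muscle 3 of 8 genes rose, among them tagln (1.70) and acta2 (1.34), and the list's summed signal was 10166 to 11321 in the 3 dpf pools and 19697 to 20523 in the 6 dpf pools. In tendon and connective tissue 6 of 10 fell, postnb the most (-2.11), and the sum was 70971 to 75063 at 3 dpf and 27840 to 32130 at 6 dpf. In heart muscle 2 of 11 fell, myl4 and hand2, and the sum was 6966 to 8125 at 3 dpf and 6160 to 6477 at 6 dpf. The part of these tissues in the members' values was not tested.

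The dye-swapped arrays set the Msp mutant directly against wild type. Over both stages 2 of 59 members fell in the mutant (0.584% of all genes) and none rose (0.441% of all genes), by limma with an adjusted p under 0.05. These were the fast light chain gene myl1 and the fast troponin I gene tnni2a.4. At an unadjusted p under 0.05, 19 members were lower (6.72% of all genes) and 1, smyd1a, was higher (6.82% of all genes). The higher value of smyd1a was that of its brightest probe (0.19), and its other 2 probes were lower, at -0.28 and -0.14. This limma test rests on 2 stage values per gene with 1 residual degree of freedom.

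For myl1 the log2 ratios of mutant over wild type were -0.63 and -0.46 on the arrays of 3 dpf and -0.86 and -0.55 on those of 6 dpf. Every array had the mutant below wild type, and limma gave -0.62 ± 0.08 (SE, adjusted p = 0.0356), a 1.54-fold lower level. The value of myl1 rests on 1 probe. For tnni2a.4 the ratios were -0.75 and -0.58, then -0.49 and -0.53, and limma gave -0.59 ± 0.08 (SE, adjusted p = 0.0410). A second probe of tnni2a.4 also fell in a limma fit of single probes (-0.59, adjusted p = 0.0278), and the third was at -0.28. Both genes lost the call without background subtraction, with an offset of 10 and with the processed signals of Agilent, and tnni2a.4 also in 3 further settings. Adjusted p over all settings ran from 0.000618 to 0.162 for myl1 and from 0.00147 to 0.18 for tnni2a.4, while the log2 ratios stayed within -0.72 to -0.55 and -0.69 to -0.49.

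The largest genotype difference among the members was in klhl41b. The arrays of 3 dpf gave ratios of -0.55 and -0.72, and those of 6 dpf gave -1.47 and -1.35. Signals were 3634 in wild type and 2345 in the mutant at 3 dpf, and 6862 and 2585 at 6 dpf, so the wild-type pools differed between the stages more than the mutant pools did. At 6 dpf klhl41b was the 1 member past the size rule (0.265% of all genes), which asks for a mean log2 ratio of at least 1 with at least 0.5 on each array, and its mean was -1.41 ± 0.09 (SD, n = 2 arrays). Over both stages limma gave -1.02 ± 0.18 (SE, adjusted p = 0.0721), which misses the threshold, and 4 of the other settings carried it past (adjusted p from 0.000255 to 0.218 over all settings). It rests on 1 probe. No member passed the size rule at 3 dpf (0.17% of all genes) and none was past it upward at 6 dpf (0.255% of all genes).

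**Figure D2:**
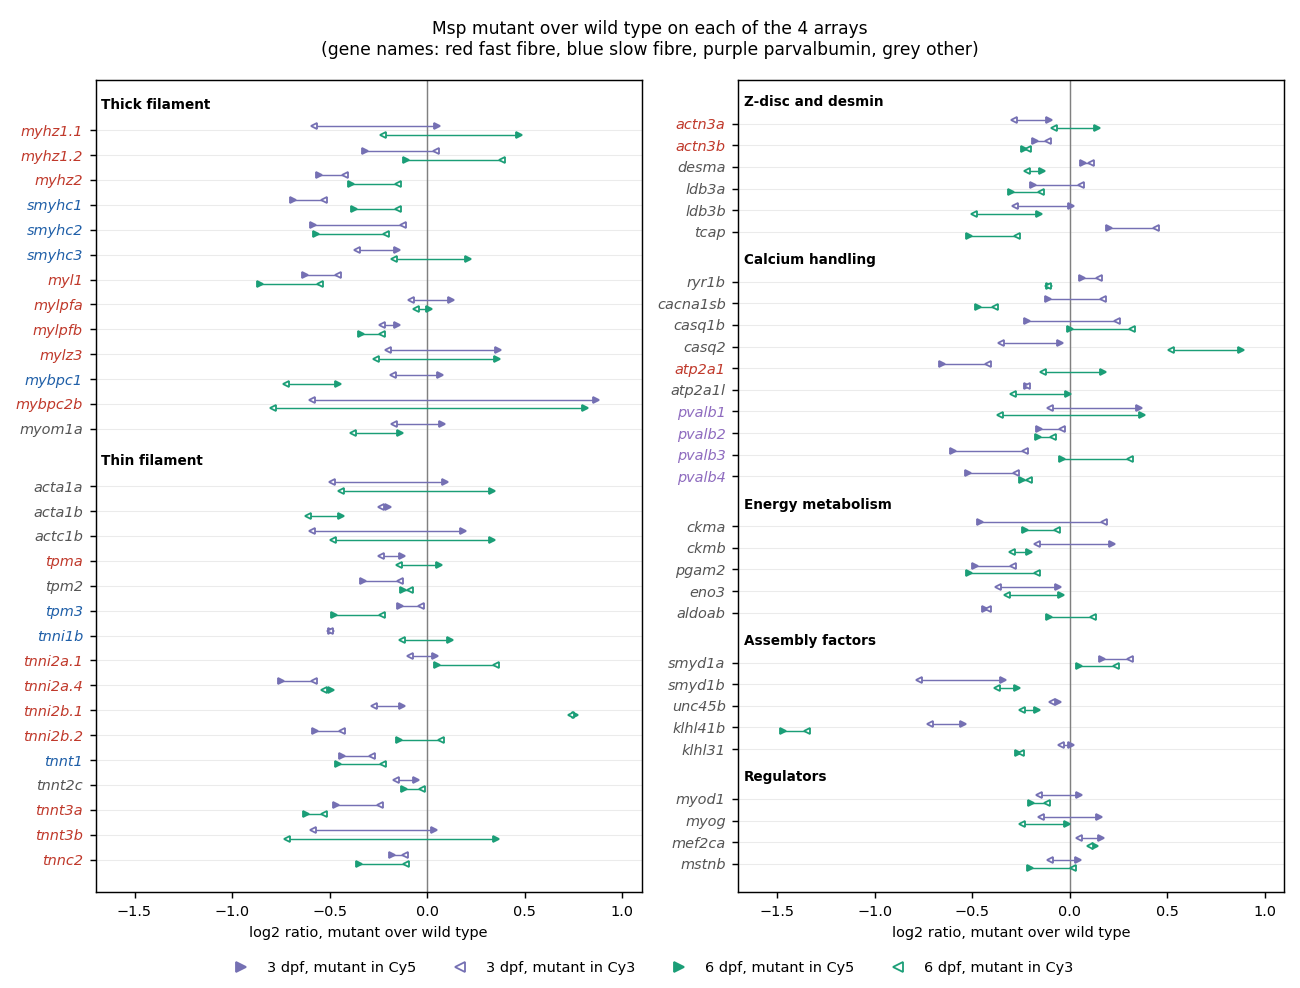
Log2 ratio of Msp mutant over wild type (x axis) on each of the 4 arrays for the 59 measured muscle genes, with purple for 3 dpf, green for 6 dpf, filled triangles for the mutant in Cy5 and open triangles for the mutant in Cy3. The 4 ratios of myl1, tnni2a.4 and klhl41b all lie below 0, and mybpc2b runs from -0.79 to 0.86 with the dye.

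Most members had small ratios below 0. At 3 dpf 46 of 59 members had a mean ratio below 0 (8599 of 18834 for all genes), with a median of -0.18 beside 0.01 for all genes. On both arrays 32 were below 0 (26.7% of all genes) and 5 above (31.3% of all genes). At 6 dpf 43 were below 0 (9005 of 18834 for all genes), with a median of -0.15 beside 0.01 for all genes. On both arrays 35 were below 0 (26.4% of all genes) and 6 above (29.2% of all genes). On all 4 arrays 22 members were below 0 (11.7% of all genes) and 2, smyd1a and mef2ca, were above on their brightest probe (13.6% of all genes). The other 2 probes of smyd1a had means below 0 at both stages, and the other 3 of mef2ca had means above 0. On single arrays the median stood at -0.13 and -0.22 for 3 dpf, and at -0.14 and -0.21 for 6 dpf. Normalization by the median in place of loess gave -0.31 at 6 dpf.

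Slow fibre members had the lower medians. At 3 dpf all 7 had a mean ratio below 0, with a median of -0.35, and 6 were below 0 on both arrays. Of the 19 fast members 16 were below 0, with a median of -0.20, and 12 were so on both arrays. For all genes, 8599 of 18834 were below 0 at 3 dpf, and 26.7% were so on both arrays. At 6 dpf the slow median was -0.34, with 6 of 7 below 0 and 5 on both arrays. The fast median was -0.04 at 6 dpf, with 11 of 19 below 0 and 7 on both arrays. For all genes, 9005 of 18834 were below 0 at 6 dpf, and 26.4% were so on both arrays. This order of the classes depended on the probe: when the probes of each gene were averaged, the slow and fast medians became -0.25 and -0.27 at 3 dpf, and -0.11 and -0.16 at 6 dpf. The fast median of 6 dpf was 0.01 on array 1 and -0.15 on array 2, and -0.26 when arrays were normalized by the median. The 2 members that fell by limma over both stages, myl1 and tnni2a.4, were both fast, and none of the 7 slow members was called (0.584% of all genes fell). No test was made between the classes.

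**Figure D3:**
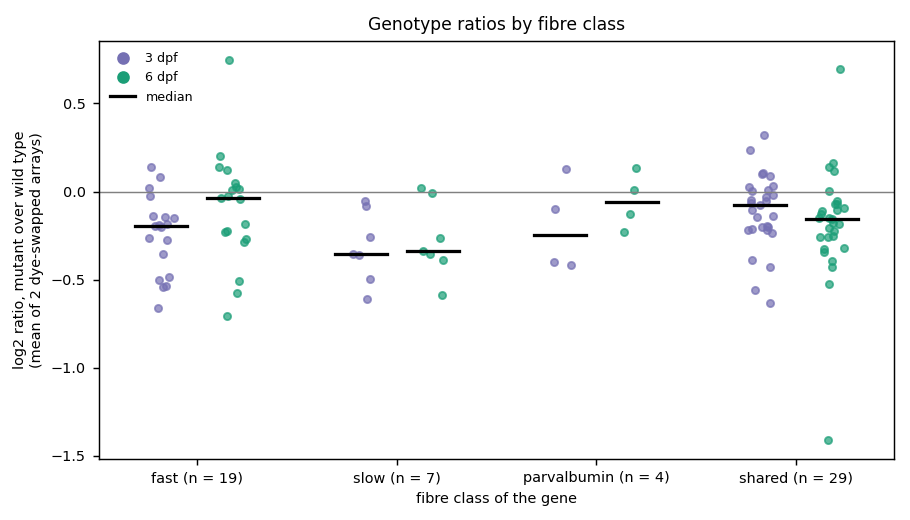
Mean log2 ratio of Msp mutant over wild type (y axis) by fibre class of the gene, 1 point per gene, with purple for 3 dpf, green for 6 dpf and a black bar at the median of each class. All 7 slow genes lie below 0 at 3 dpf, and the fast median is -0.20 at 3 dpf and -0.04 at 6 dpf.

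Among the slow genes, smyhc1, a myosin heavy chain gene of the first slow fibres, had ratios of -0.69 and -0.53 at 3 dpf and -0.38 and -0.15 at 6 dpf. All 4 were below 0, though its mean of -0.44 ± 0.10 missed the threshold (SE, limma adjusted p = 0.147), and its other 2 probes stood at -0.19 and -0.18. For smyhc2 the ratios were -0.59, -0.12, -0.57 and -0.21 and the mean -0.37 ± 0.07 (SE, limma adjusted p = 0.0965), with its other 3 probes between -0.14 and -0.07. For smyhc3 they were -0.15, -0.36, 0.21 and -0.17. Slow troponin T, tnnt1, was at -0.44 and -0.28, then at -0.46 and -0.22. Slow troponin I, tnni1b, had -0.49 and -0.50 at 3 dpf and 0.12 and -0.13 at 6 dpf, where it was near background. The slow C-protein gene mybpc1 was near 0 at 3 dpf (-0.05 ± 0.17, SD) and lower at 6 dpf (-0.59 ± 0.19, SD), and tpm3, a tropomyosin of slow fibres, stood at -0.08 ± 0.08 and -0.35 ± 0.17 (SD, n = 2 arrays each). These are values of the brightest probe of tpm3. Its other 6 probes had means from -0.44 to 0.23 at 3 dpf and from -0.33 to 0.16 at 6 dpf, on either side of 0.

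Among the fast genes, the heavy chain gene myhz2 had ratios of -0.55 and -0.42 at 3 dpf and -0.39 and -0.15 at 6 dpf. The troponin T gene tnnt3a had -0.47 and -0.24, then -0.62 and -0.53, with a mean of -0.46 ± 0.08 (SE, limma adjusted p = 0.0834). Both were below 0 on all 4 arrays without passing the test. The light chain genes mylpfa and mylz3 stood near 0, at 0.02 and 0.08 at 3 dpf and -0.02 and 0.05 at 6 dpf. The other 2 probes of mylz3 were lower, at -0.04 and -0.49 at 3 dpf, and at -0.37 and -0.30 at 6 dpf. The calcium pump atp2a1 was at -0.54 ± 0.17 at 3 dpf and 0.02 ± 0.22 at 6 dpf (SD, n = 2 arrays each), and tnni2b.2 at -0.51 ± 0.10 and -0.04 ± 0.15. Of the neighbouring heavy chain genes, myhz1.1 was at -0.27 ± 0.44 and 0.12 ± 0.49 on its brightest probe. The brightest probe of myhz1.2 stood at -0.14 ± 0.25 and 0.14 ± 0.35. Neither of these probes differed from 0 by more than the spread of its arrays. Means of the other 5 probes of myhz1.1 spanned -0.65 to 0.07 at 3 dpf and -0.11 to 0.19 at 6 dpf. Both dimmer probes of myhz1.2 lay below 0 at each stage. Their means were -0.20 and -0.47 at the earlier stage, then -0.38 and -0.07.

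Among shared genes, the phosphoglycerate mutase gene pgam2 had ratios of -0.48 and -0.29 at 3 dpf and -0.52 and -0.17 at 6 dpf, and the methyltransferase gene smyd1b had -0.35 and -0.77, then -0.27 and -0.37. Both were below 0 on all arrays, with limma means of -0.37 (adjusted p = 0.102) and -0.44 (adjusted p = 0.102). The actin acta1b was at -0.22 ± 0.02 and -0.53 ± 0.12 (SD, n = 2 arrays each). Its paralogues acta1a and actc1b had ratios of either sign within a stage, such as 0.33 and -0.48 for actc1b at 6 dpf. The parvalbumin median was -0.25 at the earlier stage and -0.06 at the later, with pvalb4 below 0 on all 4 arrays and pvalb1 of either sign with the dye.

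Several bright probes had ratios that changed sign with the dye. The fast C-protein gene mybpc2b had ratios of 0.86 and -0.59 at 3 dpf and 0.81 and -0.79 at 6 dpf, positive both times the mutant was in Cy5. The average over the swap was 0.14 ± 1.03 and 0.01 ± 1.13 (SD, n = 2 arrays each). The same order of signs at both stages was seen for myhz1.1, mylpfa, mylz3, acta1a, actc1b, tnnt3b and pvalb1.

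Probes of the same gene were compared as a check on the choice of the brightest. Of 41 members with more than 1 kept probe, the dimmest probe had a lower genotype mean than the brightest in 25, by over 0.2 on the log2 scale in 11, and it was higher by over 0.2 in 4. For the creatine kinase gene ckma the brightest probe stood at -0.15 and the dim one at -0.55, and for ckmb the values were -0.12 and -0.62. The glycolytic genes eno3, aldoab and pgam2 showed the same order, as did the light chain gene mylpfa, whose probes stood at 0.00, -0.52 and 0.12. Over all 161 kept probes of members 132 had a mean ratio below 0. Probes of the same gene measure the same pools, and the share over all probes of the array was not counted. The order of dimmest and brightest probe was not counted over all genes either, so it cannot be called particular to the members.

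In a limma fit of 31043 single probes, 10 member probes of 7 genes fell in the mutant (0.873% of all probes) and none rose (0.673% of all probes). Of these genes, acta1b, mylpfa, atp2a1l and klhl31 fell on dimmer probes while their brightest probe was not called. For acta1b the 3 probes had means of -0.69, -0.62 and -0.87, and the other 3, including the brightest, lay between -0.39 and -0.37. The sixth probe of acta1b had ratios of -0.75, -0.81, -0.90 and -1.02, below 0 on every array. A dim probe of klhl31 fell as well, at -0.73, whereas the brightest stood at -0.14. The only probe of klhl41b was called in this limma fit (adjusted p = 0.0498). Its values and mean (-1.02) are those of the gene fit, and only the moderation and adjustment, over probes in place of genes, differ. For the stage change, 14 probes of 7 genes rose (4.69% of all probes) and 17 probes of 9 genes fell (5.39% of all probes).

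**Figure D4:**
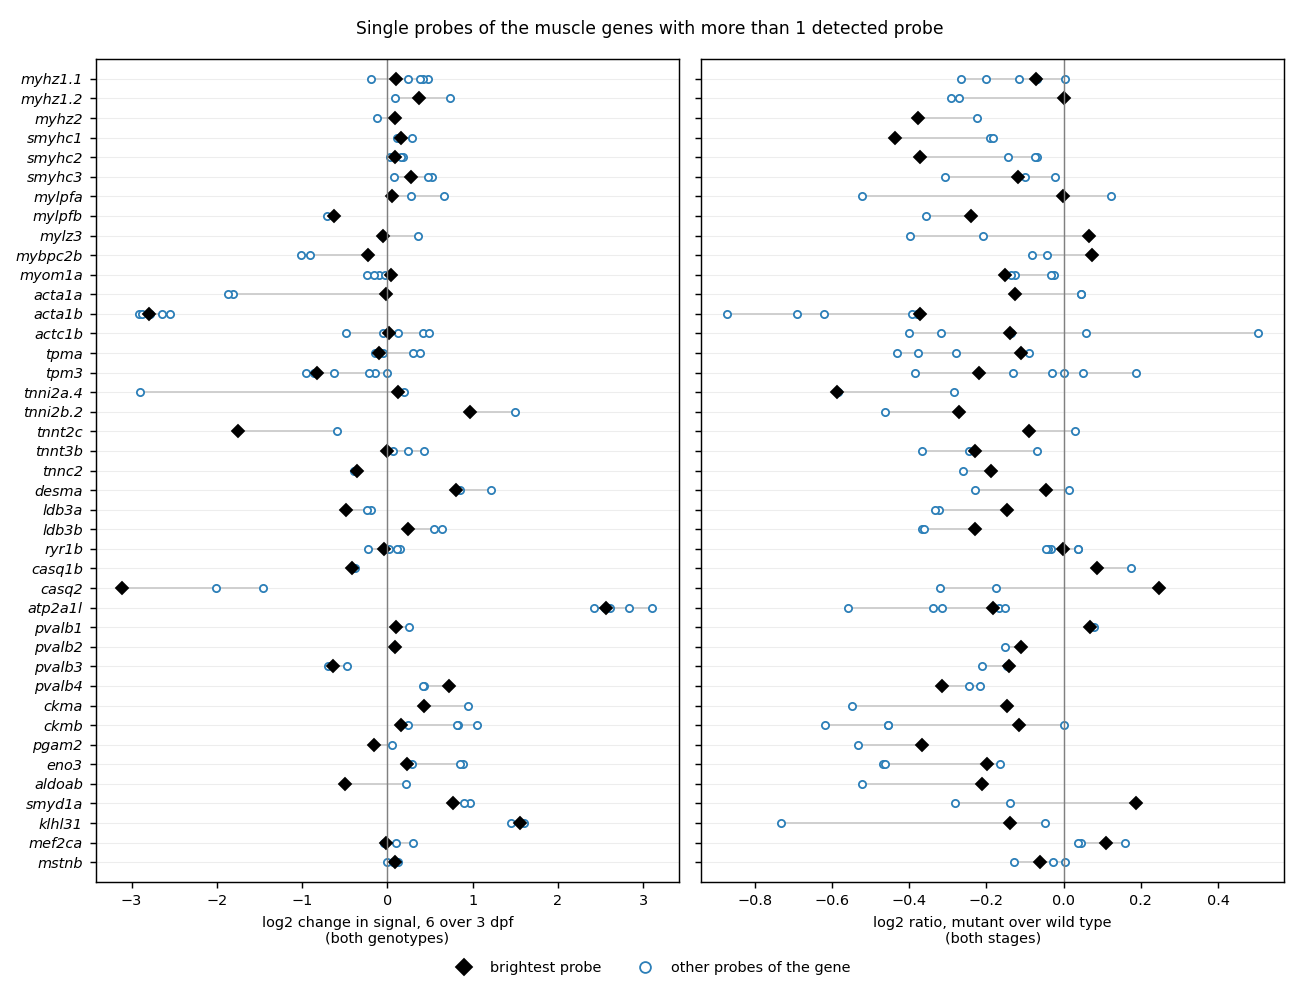
Single probes of the 41 muscle genes with more than 1 kept probe, with the log2 change from 3 to 6 dpf on the left and the log2 ratio of mutant over wild type on the right (x axes), black diamonds for the brightest probe and blue circles for the others. All 6 probes of acta1b lie between -2.91 and -2.55 on the left, while those of acta1a and tnni2a.4 spread from near 0 to -1.87 and -2.90.

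The other skeletal muscle genes lay slightly below 0 as well, the median of 67 genes being -0.08 at 3 dpf and -0.10 at 6 dpf. Over both stages 50 had a mean below 0 (8668 of 18834 for all genes). On all 4 arrays 18 were below 0 (11.7% of all genes) and 2 above (13.6% of all genes). At an unadjusted limma p under 0.05, 17 were lower (6.72% of all genes) and 2 higher (6.82% of all genes). Of the 67, 1 gene, myoz2a, fell at a limma adjusted p under 0.05 (0.584% of all genes). It encodes a calsarcin of the Z-disc and had ratios of -0.55 and -0.57 at 3 dpf and -0.60 and -0.58 at 6 dpf (limma mean -0.58, adjusted p = 0.0340). It missed the threshold when no background was subtracted (-0.39, limma adjusted p = 0.0768) and on the processed signals of Agilent (-1.09, limma adjusted p = 0.0971), and adjusted p was at least 0.00264 over all settings. The 11 heart muscle genes had a median below 0 at 3 dpf (-0.16) and above 0 at 6 dpf (0.15). The cardiac light chain gene myl7 went from -0.46 ± 0.13 to 0.53 ± 0.07, cmlc1 from -0.39 ± 0.08 to 0.67 ± 0.26 (SD, n = 2 arrays each), and the heart myosin gene myh6 stood at 0.10 and 0.19. The largest means over both stages were those of myl4, above 0 at both (0.30 and 0.66), and tnni1c, below 0 at both (-0.27 and -0.59). Smooth muscle had medians of -0.09 and -0.03 over 8 genes, and tendon and connective tissue -0.04 and 0.17 over 10, with the tendon marker tnmd at 0.04 and 0.09. The connective tissue list shares xirp2a with the skeletal muscle list, named here after its values were seen, and this was its 1 gene below 0 at 6 dpf (-0.22). None of the heart, smooth muscle or connective tissue genes passed the limma genotype test. At an unadjusted p under 0.05 there were 2 heart genes, 1 smooth muscle gene and 1 connective tissue gene.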

How the data were processed

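Per the file headers, spots were read with Agilent Feature Extraction 10.5.1.1 (protocol GE2_105_Dec08), while the submitters' processing notes name 8.5.1.1. The deposited scanner files hold linear intensity per spot, as a median signal and a local background. The deposited series table holds that array's log2 ratios under the second array of 3 dpf and the first of 6 dpf. Under the second of 6 dpf it holds the mean log2 ratio of both. The values deposited under the first of 3 dpf are a score of unknown order, which was not used.

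In R 4.3.3 with limma 3.58.1, signals were background-corrected (normexp, offset 50), loess-normalized within arrays, turned to mutant over wild type, and averaged over the arrays of a stage. Pool signals were also normalized between arrays (Aquantile). Probes (43603) were named by accession, symbol or description with RefSeq tables (GRCz12tu), and 8111 without a name stood for their accession. Each gene was represented by its brightest probe, kept where 1 pool or more had it well above background on both arrays. Genotype was tested with limma on the 2 stage values, and stage on the 4 pools with genotype as a term. P-values were adjusted by Benjamini-Hochberg over 18834 features. In both tests the 1 residual per gene is the difference between the 2 stages' mutant over wild-type ratios. It is moderated over all genes (prior degrees of freedom 4.81). P-values and SE thus cover no spread between repeat pools of a group. The 2 pools of a stage share its arrays, so stage cannot be told apart from array. The number of arrays limits the precision. Files were read and figures drawn with Python 3.11.15, numpy 2.4.6, pandas 2.3.3 and matplotlib 3.10.9, and the fits were tested on simulated data.

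The members and all gene lists were chosen with earlier results of these data known, so lists are described by counts and medians without a test. Any member may be named. Of other skeletal muscle genes up to 8 called genes per comparison are named, and of the heart, smooth muscle and connective tissue lists the largest changes and defining markers. Settings tried were the background, offset, signal, normalization, probe choice, filter, moderation and leaving out each array.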

Additional observations from a re-analysis of the deposited data

Results flagged for a closer look

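Ratios of mutant over wild type had opposite signs at the 2 stages, on both arrays of each, for 5 of 59 members, beside 10.5% of all genes. Such sign changes were thus no more frequent among the members than among all genes. None of these 5 differences was tested, as each stage has 1 pool per genotype. The fast troponin I gene tnni2b.1 had ratios of -0.13 and -0.27 at 3 dpf and 0.76 and 0.74 at 6 dpf, a difference of 0.948 (6 dpf minus 3 dpf). For the calsequestrin casq2 they were -0.05 and -0.35, then 0.88 and 0.52, a difference of 0.899. Its other 2 probes had mean ratios of -0.31 and -0.70 at 3 dpf and of -0.04 and 0.06 at 6 dpf. The second of these was near background at 6 dpf, where it passed on 1 of 2 arrays in each genotype. The heart genes myl7 and cmlc1 crossed 0 the same way as the brightest probe of casq2, while myl4 was above 0 and tnni1c below 0 at both stages. The telethonin gene tcap went the other way, from 0.20 and 0.44 to -0.52 and -0.27, a difference of -0.714. Smaller differences were found for the desmin gene desma (-0.27) and the ryanodine receptor gene ryr1b (-0.214). These are values of the brightest probe. The other 2 probes of desma had means of -0.21 and 0.12 at 3 dpf, and of -0.25 and -0.10 at 6 dpf. The other 5 kept probes of ryr1b did not all change sign, with means from -0.07 to 0.19 at 3 dpf and from -0.15 to 0.03 at 6 dpf.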

How the results depend on the processing

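The 10 called stage changes and the genotype means of myl1, tnni2a.4, klhl41b, tnnt3a, smyhc2 and myoz2a kept their direction in every setting run. The count of members that fell in the mutant (2) was 0 without background subtraction, with offset 10 and with Agilent's processed signals, 1 with an intensity trend and with named features alone, 4 with median normalization and without the filter, and 7 genes with every probe as a feature. Genotype calls over all features, in either direction, were 193 of 18834 in the main fit. They were 77 of 18836 without background subtraction, 217 of 18835 with offset 10 and 27 of 18824 with processed signals. An intensity trend gave 210 of 18834, named features 127 of 15037, median normalization 261 of 18834 and no filter 393 of 26544. Leaving out 1 array gave 2 to 9, and the 9, without array 2 of 3 dpf, were myl1, tnni2a.4, klhl41b, myhz2, smyhc1, smyhc2, tnnt1, tnnt3a and pgam2. Calls over all features also rose well above those of the main fit without array 2 of 3 dpf. The 9 thus cannot be told apart from a general rise in calls. With 1 array left out, its stage keeps a single dye orientation, so dye effects on single genes are not averaged out there. Members that rose with stage (4) numbered 2 without normalization between arrays (10 fell) and 7 genes with every probe. Over all features, stage calls in either direction were 2691 of 18835 without normalization between arrays and 1940 of 18834 in the main fit. Named features alone and every probe were chosen after seeing the data. The members' median at 6 dpf was -0.3077 with median normalization, and without 1 array it ranged from -0.2113 to -0.1422 (3 dpf, -0.2172 to -0.1307). At 6 dpf the fast median was -0.2639 with median normalization and -0.1581 with the mean of all probes, the slow one -0.111 with the latter. Without 1 array, fast medians ranged from -0.2714 to -0.1553 at 3 dpf and -0.1473 to 0.009338 at 6 dpf, slow ones from -0.4379 to -0.2823 and -0.4551 to -0.2113. Median stage changes of fast members in wild type were -0.1544 with processed signals, 0.04594 with median normalization, -0.1196 with quantile and -0.3291 with no normalization between arrays, and -0.2258 to 0.04057 without 1 array. In the mutant the same settings gave -0.0428, -0.05234, 0.02713 and -0.1368, the mean of all probes 0.01912, parvalbumins counted as fast 0.03245, and leaving out 1 array -0.1108 to 0.06346. Slow members in wild type had 0.05199 with processed signals, 0.0635 with the mean of all probes, -0.4773 with no normalization between arrays and -0.09117 to 0.06391 without 1 array, and in the mutant 0.171 with the mean of all probes, -0.1936 with no normalization between arrays and -0.03298 to 0.1834 without 1 array. The cause of these shifts was not tested. Mutant and wild type were paired on each array, and the genotype test used those ratios, averaged within a stage. Replicate numbers mark the dye orientation of what were taken as the same 2 pools, so they gave no further pairing. The tests rest on 4 pools, with 1 per genotype and stage.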
